A study of Saccharomyces cerevisiae with 28 samples.

Results

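The early activation screen compared yeast cells sorted into a high fluorescence fraction with the cells left in the low fluorescence fraction, and its 4 libraries were chosen by their sample labels among the 28 libraries of the series. The cells were of Ethanol Red, a diploid bioethanol strain of Saccharomyces cerevisiae into which a secreted α-amylase had been integrated, so both fractions carried the amylase, the activator and a guide plasmid. The activator was dCas9-VPR, a Cas9 that binds without cutting joined to transcription activation domains, expressed from the constitutive TEF1 promoter. The guide RNA was under a TET-On promoter and was switched on with 500 ng/µl anhydrotetracycline when single cells were enclosed in droplets with a fluorogenic starch substrate, after growth with 400 µg/mL geneticin at 30 °C. Droplets in the window of highest fluorescence were pulled into the high fraction and all others flowed passively into the low fraction, in round 1 of sorting, with 2 replicates. The sorted cells were grown overnight on plates, and the 20-base guide region of their plasmids was then amplified and counted. The labels do not say whether the replicates were separate cultures, so the tests below measure only the spread between these libraries, which may be technical.

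A guide directs dCas9-VPR to the start of one gene or noncoding transcript and raises its transcription. The substrate gives off fluorescence as secreted amylase cleaves it. The share of reads of a guide in a fraction reflects how often its cells were sorted there and how well they then grew. Secreted proteins of yeast fold and form disulfide bonds in the endoplasmic reticulum (ER), pass through the Golgi in coated vesicles and leave by exocytosis, while misrouted cargo goes to the endosome and vacuole. The stable unannotated transcripts (SUTs) and cryptic unstable transcripts (CUTs) are noncoding RNAs that are also targeted by the library.

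Of the 40890 guides of the count table, 11917 had at least 1 read in the early screen. Reads in both high libraries and none in both low libraries were found for 67 guides, which was 0.562% of the guides detected. The opposite pattern, reads in both low libraries and none in both high libraries, was found for 1440 guides, or 12.1%. These 2 sets are called high-only and low-only guides. They were chosen by these reads, so their read numbers are given as a description. A gene is known here for 8 of the high-only and 499 of the low-only guides, through the pairs of guides and genes in the study's guide lists. The lists cover 2278 guides and favour those with low p-values, so a guide without a gene is named by its sequence.

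The first set of sequences shows the 10 high-only guides with the highest CPM (counts scaled to equal library totals) in their lower high library, followed by the PDI1 and NMA2 guides, which missed the pattern by 1 low read. The 10 capitals are the bases next to the PAM, the end at which a guide pairs first.
BNA7: atggtccaaaCCTAAGGTTA
MAL11: gtggggtccgCGAAAATTTC
YPR148C: tcgtgaaatgCACTTCAAGG
PEX29: aattttaagaAATAACAACG
RAI1: gagaatattaGGAACAGATG
CCH1: agctactaagAACAATGGAG
No paired gene: ggatatcgatACTCGAAAAG
No paired gene: aaagactttcTATTTTGTGA
No paired gene: aagaatttctGATTTAACGC
No paired gene: gcgcatggatGCAACCGGAC
PDI1: ggcacaccacTTATAATGCG
NMA2: agttcttcatTTGGCTGTGG

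The second set shows low-only guides in the same form, namely 7 of the 10 with the highest CPM in their lower low library and the MRPL44 and SRB8 guides, which had among the lowest fold changes.
RPS7B: gcgagcgcccTGGTAAAATG
CUT235: gcatagtaccTAAAACGGGT
SUT248: gttcgtatccTAGCATCCGG
SUT476: gtcaccagtgGCCAAGTGAG
CUT119: ttcgtctcttATGTAATTTT
RXT2: ccgggtagcgAACTTTGTTC
ACF4: ggtcattgaaGAAGCAAGGG
MRPL44: aaaagtcttaCATGTGTAAA
SRB8: aaactaaacaCCCCCCTGGG

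The high-only and low-only sets had the same median GC content as the library. The median GC content was 40% in the high-only set, 40% in the low-only set and 40% over all guides, and the guides above ran between 20% GC for PEX29 and 65% GC for gcgcatggatGCAACCGGAC. A run of at least 4 thymines, which can end transcription by RNA polymerase III, was present in 11 of the 67 high-only guides (16.4%), 12.2% of the low-only guides and 11.3% of all guides. A first base of G was found in 38.8% of high-only and 43.8% of low-only guides, close to the 38.6% of all detected guides and above the 20.3% of the whole table.

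The 4 libraries differed in how many guides they held. The high libraries had 1880556 reads on 3224 guides in replicate 1 and 1137532 reads on 3330 guides in replicate 2. The low libraries had 1883257 reads on 8954 guides in replicate 1 and 809772 reads on 5119 guides in replicate 2. At equal depth, with every library thinned to 809772 reads, the high libraries still held 2272 and 2947 guides, against 7861 and 5119 in the low libraries. Guides with a single read made up 47.6% and 37.4% of those detected in the high libraries, against 17.9% and 14.1% in the low libraries. Of the guides with 1 read in high replicate 1, 57.4% had at least 10 reads in low replicate 1, against 12.3% of the guides with no read in high replicate 1. Most guides with a single read in high replicate 1 were thus well read in the low library of that replicate, and the part of single reads in the patterns of presence was not tested.

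The few guides that led a high library changed between replicates. The guide of SPO1, a gene of meiosis, had 52852 reads in high replicate 1 and 11671 in high replicate 2, against 3815 in low replicate 1 and 2 in low replicate 2. The guide of ERV46, a cargo receptor between ER and Golgi, had 22610 and 2 reads in the high libraries, against 857 and 0 in the low libraries. The guide of SUT140 had 6 and 14586 reads in the high libraries, against 8503 and 5098 in the low libraries. The guide of FIP1, of the mRNA polyadenylation complex, had 28291 and 1979 reads in the high libraries, against 1514 and 611 in the low libraries. The guide of PPM2, a tRNA methyltransferase, had 22924 and 5 reads in the high libraries, against 1036 and 2 in the low libraries. The guide of TCM62, a mitochondrial chaperone, was read well in every library, with 4205 and 7499 reads in the high libraries, against 2326 and 2746 in the low libraries. The guide of TAF10, a subunit of TFIID and SAGA, had 0 and 5765 reads in the high libraries, against 217 and 1004 in the low libraries. Guides that led a low library were often read well in both low libraries, though that of STU1 had 4147 and 40 reads there. The guide of FMC1, an assembly factor of the ATP synthase, had 3 and 1053 reads in the high libraries, against 7458 and 2902 in the low libraries. That of SML1, an inhibitor of ribonucleotide reductase, had 5349 and 840 reads, against 4554 and 2397. None of these guides with a paired gene passed the test described below. A guide without a paired gene, aagataattgTTCTTGACCA, had 21948 and 2 reads in the high libraries, against 22 and 1 in the low libraries, and was called enriched there (log2 FC 14.87 ± 5.94, adjusted p = 0.0797). Only the SPO1 guide was among the 5 most read guides of both high libraries. The 10 most read guides took 12.6% and 6.33% of the reads in the high libraries, against 2.75% and 3.54% in the low libraries.

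Each high library had more guides in common with low replicate 1, the library with the most guides, than with the other high library. High replicate 1 and high replicate 2 had 1166 guides in common, 36.2% of the first library and 35.0% of the second. High replicate 1 shared 2419 of its 3224 guides with low replicate 1, and high replicate 2 shared 2312 guides, 69.4% of its own, with the same low library. The low libraries shared 3487 guides, 38.9% of low replicate 1 and 68.1% of low replicate 2. Over the guides in common, the Spearman correlation of CPM was −0.05 between the high libraries and 0.10 between the low libraries, which is given as a description over guides of shared libraries.

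Guides found only in the high fraction of a replicate were read more often in the low than in the high fraction of the other replicate. Of 805 guides found only in the high fraction of replicate 1, 115 (14.3%) were read in high replicate 2 and 187 (23.2%) in low replicate 2. Of 6535 guides found only in the low fraction of replicate 1, 1261 (19.3%) were read in high replicate 2 and 2134 (32.7%) in low replicate 2. Taken the other way, 386 of the 1666 guides found only in the high fraction of replicate 2 (23.2%) were read in high replicate 1 and 886 (53.2%) in low replicate 1. For the 3455 guides found only in the low fraction of replicate 2, the shares were 22.0% in high replicate 1 and 59.7% in low replicate 1. The low libraries held more guides in all, so these shares are set beside 8.14% and 12.5% of all guides read in high and low replicate 2, and 7.88% and 21.9% in high and low replicate 1.

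Most high-only guides rested on few reads. In 47 of the 67, the lower of the 2 high libraries had a single read, and 14 guides had 1 read in each, the least that the pattern allows. At least 10 reads in both high libraries were found for 12 guides, and at least 100 in both for 2 guides. Among the low-only guides, 748 of 1440 had at least 10 reads in both low libraries, and 222 had at least 100. The high-only set held 0.311% and 1.34% of the reads of the high libraries, and the low-only set held 12.9% and 25.9% of the reads of the low libraries. Just outside the patterns, 49 guides were read in both high libraries with 1 low read in all, and 503 guides were read in both low libraries with 1 high read in all.

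Each guide was tested between fractions with edgeR's likelihood ratio test. After removal of guides with few reads, 3215 guides were tested, 39 were enriched in the high fraction (log2 FC > 8 and FDR < 0.1; 1.21% of those tested) and 681 were depleted (log2 FC < -8 and FDR < 0.1; 21.2%). The smallest adjusted p over all guides was 0.0797, which 771 guides shared, and the enriched guides had adjusted p between 0.0797 and 0.0913. Their log2 FC ran between 10.17 and 15.46 with standard errors between 3.53 and 5.94. By CPM alone, both high libraries lay above both low libraries for 105 tested guides (3.27%), and both low libraries above both high libraries for 1533 (47.7%). All 681 depleted guides had no read in either high library, and the 11 high-only guides that were tested were all enriched, so these calls restate the patterns of presence. No guide was enriched with edgeR's glmQLFTest (8 passed log2 FC > 8 at an unadjusted p under 0.05), with a filter at CPM above 1 in at least 2 libraries (272), without a filter (728) or with the replicate number as a block (59), while DESeq2 gave 212 enriched guides. The depleted guides numbered 41 with glmQLFTest, 0 under the other 3 of these settings of edgeR, and 161 with DESeq2. At log2 FC > 3 and FDR < 0.05, the general cut of the study, 0 guides were enriched (112 at an unadjusted p under 0.05), against 12 with TMM and 233 with DESeq2. With 2 libraries a fraction, an exact permutation test of a single guide cannot give a two-sided p below 0.333.

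The guide of BNA7, whose enzyme acts in the synthesis of NAD from tryptophan (chrIV:1323454-1324239, R64), had 360 and 1202 reads in the high libraries, against 0 and 0 in the low libraries. Pooled over replicates it was at least 465-fold higher in the high fraction, with the low fraction set to a floor of 3 reads over both libraries (adjusted p = 0.0797). This bound and the later ones of its kind count reads alone. The number of sorted cells behind a guide is not known here, so the bounds do not cover the sampling of cells. The guide of MAL11, a maltose and α-glucoside transporter (chrVII:1073963-1075813), had 161 and 2315 reads in the high libraries, against 0 and 0 in the low libraries, at least 736-fold higher (adjusted p = 0.0797). Of all guides these 2 alone had no low read and at least 100 reads in each high library, and their reads were 3.34 and 14.4 times as many in high replicate 2 as in high replicate 1.

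The other leading high-only guides were less even between replicates or rested on fewer reads. The guide of YPR148C, an uncharacterised gene, had 84 and 1249 reads in the high libraries, against 0 and 0 in the low libraries, at least 396-fold higher. The guide of CCH1, a calcium channel subunit of the plasma membrane, had 42 and 1285 reads in the high libraries, against 0 and 0 in the low libraries, at least 395-fold higher. Both had most of their reads in high replicate 2. The guide of RAI1, a partner of the nuclear exonuclease Rat1, had the opposite balance, with 298 and 44 reads in the high libraries, against 0 and 0 in the low libraries, at least 102-fold higher. The guide of PEX29, a protein of the peroxisomal membrane, was the most even of these, with 80 and 98 reads in the high libraries, against 0 and 0 in the low libraries, at least 52.9-fold higher. The 5 tested high-only guides without a paired gene had 13 to 523 reads in high replicate 1 and 30 to 529 in high replicate 2. All 11 had an adjusted p of 0.0797.

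The guides of PDI1 and NMA2, which the study singles out, missed the high-only pattern by 1 read and were enriched. The guide of PDI1, the disulfide isomerase of the ER (chrIII:48653-50221), had 441 and 212 reads in the high libraries, against 0 and 1 in the low libraries. Its pooled share of reads was 583 times as high in the high fraction, with a 95% Clopper-Pearson counting interval of 104 to 23049, and its log2 FC was 12.34 ± 5.15 (SE; adjusted p = 0.0797). The guide of NMA2, an adenylyltransferase that makes the dinucleotide in NAD synthesis (chrVII:511545-512732), had 253 and 1868 reads in the high libraries, against 1 and 0 in the low libraries. Its ratio was 1893, with an interval of 339 to 74787 (log2 FC 13.18 ± 5.24, adjusted p = 0.0797). PCR reads are not independent molecules, so these intervals cover counting error only. For both genes 1 guide is paired, and every library of the high fraction lay above every library of the low fraction.

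With RLE factors the largest log2 FC belonged to the guide of EMW1, an essential gene of cell wall maintenance, with 2041 and 1882 reads in the high libraries, against 1 and 0 in the low libraries (15.46 ± 5.90, adjusted p = 0.0797). With TMM or library size alone the MAL11 guide (13.28 and 13.44) and the BNA7 guide (12.69 and 12.67) exceeded that of EMW1 (12.09 and 11.49). The guide of PRY2, a secreted sterol-binding protein, had 1746 and 324 reads in the high libraries, against 2 and 0 in the low libraries (14.44 ± 5.73). The guide of KRS1, the lysyl-tRNA synthetase, had 7883 and 1276 reads in the high libraries, against 14 and 0 in the low libraries (14.20 ± 5.80). The guide of the small nucleolar RNA snR63 had 1219 and 171 reads in the high libraries, against 1 and 0 in the low libraries (14.60 ± 5.71). Guides of CUT832, SUT784 and NGK1 likewise had at least 400 reads in both high libraries, against 4, 5 and 6 reads over the low libraries, and that of VPS27, an endosomal sorting protein, had 847 and 168 reads, against 1 and 1.

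The guide of AVT2, a putative amino acid transporter of the vacuole, had 153 and 745 reads in the high libraries, against 1 and 1 in the low libraries (10.93 ± 4.77, adjusted p = 0.0891). It was the lowest log2 FC among the enriched guides with a paired gene.

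Many of the other enriched guides had most of their reads in high replicate 1. The guide of TRK2, a potassium transporter, had 2671 and 9 reads in the high libraries, against 2 and 0 in the low libraries. The guide of CCT3, a subunit of the cytosolic chaperonin that folds actin and tubulin, had 4931 and 215 reads in the high libraries, against 4 and 1 in the low libraries. The guide of SUT428 had 9470 and 97 reads in the high libraries, against 12 and 14 in the low libraries, the only paired enriched guide with over 10 reads in low replicate 2. The guide of CUT529 had 646 and 13 reads in the high libraries, against 5 and 0 in the low libraries. Of the 39, 17 had over 90% of their high reads in high replicate 1, 9 had at most 2 reads in high replicate 2, and 2 of these had none. The guide of GPM3, a homolog of phosphoglycerate mutase, had 7165 and 2 reads in the high libraries, against 15 and 1 in the low libraries. The guide of CLG1, a cyclin-like protein, had 5043 and 1 reads in the high libraries, against 14 and 0 in the low libraries. The guide of YEL1, an exchange factor of the small GTPase Arf3, had 19237 and 9 reads in the high libraries, against 62 and 1 in the low libraries. The 12 enriched guides with over 5000 reads in high replicate 1 had 10 to 62 reads in low replicate 1, or 0.10% to 0.343% of their number. A small ratio follows from the cut on fold change that chose them. The SPO1, FIP1, PPM2 and ERV46 guides, which led high replicate 1 and were not called, had 857 to 3815 reads in low replicate 1. The part of these low reads in the calls was not tested. Of all enriched guides, 29 were above both low libraries in both high libraries by CPM, and 28 had at least 10 reads in both high libraries. The normalization weighs the libraries unequally, with RLE factors of 0.0833 and 1.21 for the high libraries, against 3.73 and 2.67 for the low libraries. These factors rest on the 686 tested guides that were read in all 4 libraries.

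The leading low-only guides included those of a ribosomal protein gene and of noncoding transcripts, but neither group stood out by its share of depleted guides. That share was 17.4% for cytosolic ribosomal proteins, 21.0% for SUTs and 23.5% for CUTs, against 22.9% over tested guides with a paired gene or transcript. The guide of RPS7B, of the small ribosomal subunit, had 0 and 0 reads in the high libraries, against 1647 and 739 in the low libraries. With the same floor its share of reads was at least 891-fold lower in the high fraction (adjusted p = 0.0797), a bound on reads and not on sorted cells. The guide of CUT235 had 0 and 0 reads in the high libraries, against 1239 and 1213 in the low libraries, at least 916-fold lower. Of the 10 leading low-only guides, 6 target other SUTs or CUTs (SUT248, SUT476, CUT119, CUT293, CUT704 and CUT632), with 758 to 1559 reads in low replicate 1 and 336 to 984 in low replicate 2. The last 2 of the 10 were the guide of RXT2, of the Rpd3L histone deacetylase, with 0 and 0 reads in the high libraries, against 865 and 1495 in the low libraries, and that of ACF4, with 0 and 0, against 853 and 784. The CPM of these 10 guides differed by at most 4.02-fold between the low libraries.

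The guide of MRPL44, of the large subunit of the mitochondrial ribosome, had 0 and 0 reads in the high libraries, against 755 and 2191 in the low libraries. Its pooled share of reads was at least 1101-fold lower in the high fraction. The guides of SRB8, a Mediator subunit, and CDC31, the centrin of the spindle pole body, had 0 and 0 reads each in the high libraries, against 104 and 1919 for SRB8 and 87 and 1699 for CDC31 in the low libraries. The guide of SUT132 had 0 and 0 reads in the high libraries, against 181 and 2238 in the low libraries. These 3 stood mainly on low replicate 2.

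Gene lists are described by their counts, without a test of the list. Over the 2063 tested guides with a paired gene or transcript, 24 were enriched and 472 depleted (22.9%), with a median log2 FC of 1.73. Of 15 tested guides for ER folding, glycosylation and quality control, 1 was enriched (PDI1) and 2 were depleted (13.3%, against 21.2% of all tested guides). The depleted ones were for ALG11, a mannosyltransferase of N-glycan assembly, and EPS1, a relative of PDI1. The EPS1 guide had 0 and 0 reads in the high libraries, against 85 and 204 in the low libraries. Of 25 guides for translocation and ER to Golgi transport, none was enriched and 7 were depleted (28%). The median log2 FC of the 25 was 2.03, near the 1.73 over tested paired guides, against 0.11 over all tested guides. Among them the guide of SEC31, of the COPII coat, had 0 and 0 reads in the high libraries, against 786 and 226 in the low libraries, and that of SEC28, of the COPI coat, had 0 and 0, against 660 and 89. The guide of TRS65, of a tethering complex, had 0 and 0 reads in the high libraries, against 705 and 212 in the low libraries, and that of ERV25, a cargo adaptor of COPII vesicles, had 0 and 0, against 643 and 113. All 4 had more reads in low replicate 1, the deeper of the low libraries.

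Of 17 guides for the Golgi, the exomer and exocytosis, none was enriched and 5 were depleted (29.4%). The median log2 FC of the 17 was −4.14, against 1.73 over tested paired guides. The log2 FC was above 0 for 8 of the 17, against 1081 of the 2063 tested paired guides, so the median overstates the difference. The guide of SEC6, of the exocyst that tethers secretory vesicles, had 0 and 0 reads in the high libraries, against 551 and 653 in the low libraries, and guides of APL2 (an adaptor subunit), ARL3 (a small GTPase) and CHS6 (of the exomer) were depleted too. For the endosome and vacuolar sorting, 1 of 15 was enriched (VPS27) and 2 were depleted (13.3%), those of SRN2, of the ESCRT-I complex, and VPS74. Of 14 autophagy guides, none was enriched and 4 were depleted (28.6%), for ATG17, ATG29, ATG16 and ATG7. The ATG7 guide, whose enzyme activates ubiquitin-like proteins, had 0 and 0 reads in the high libraries, against 195 and 230 in the low libraries. Depleted shares of these lists lay on both sides of the 21.2% over all tested guides and of the 22.9% over tested paired guides.

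The list of NAD synthesis and salvage was small. Of its 4 tested guides, those of BNA7 and NMA2 were enriched, that of PNC1, the nicotinamidase, was depleted, with 0 and 0 reads in the high libraries, against 88 and 43 in the low libraries, and the fourth was not called. Respiratory chain and ATP synthase guides had 0 enriched and 4 depleted of 17 (QCR6, NDE1, SDH4 and COX11). The depleted share was 23.5%, near the 22.9% over tested paired guides. The median log2 FC of the 17 was −4.72, against 1.73 over tested paired guides, and 4 of the 17 were above 0, against 1081 of 2063. This difference was not tested. Of 9 guides for glycolysis and the pentose phosphate pathway, 1 was enriched (GPM3) and 2 were depleted (22.2%). The depleted ones were for TDH3, the glyceraldehyde-3-phosphate dehydrogenase, and FBP1, of gluconeogenesis. The TDH3 guide had 0 and 0 reads in the high libraries, against 450 and 588 in the low libraries, at least 388-fold lower in the high fraction. The guide of QCR6, of the cytochrome bc1 complex, had 0 and 0 reads in the high libraries, against 214 and 455 in the low libraries, and that of NDE1, the external NADH dehydrogenase, had 0 and 0, against 214 and 258.

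For cytosolic ribosomal proteins 0 of 46 guides were enriched and 8 depleted (17.4%), and for mitochondrial ribosomal proteins 0 of 14 and 4 (28.6%), which besides MRPL44 were MRP20, RSM19 and MRP21. Chromatin and general transcription had 0 of 21 enriched and 3 depleted (14.3%; TFG1, RSC1 and HDA2). Cell division cycle genes had 0 of 14 enriched and 2 depleted (14.3%; CDC3 and CDC31), and none of 6 guides of the galactose regulon was called. SUT guides gave 2 enriched (SUT784 and SUT428) and 53 depleted of 252 (21.0%), CUT guides 2 enriched (CUT832 and CUT529) and 61 depleted of 260 (23.5%), and snoRNA guides 1 enriched (snR63) and 1 depleted (snR78) of 11. SUT and CUT guides were thus called at shares near those of all tested guides. No gene had 2 of the 8 paired high-only guides or 2 of the 24 paired enriched guides. Of the 489 genes or transcripts with a paired low-only guide, 10 had 2 or more. The low-only set had 499 paired guides, so these counts cannot be compared between sets of such unlike size.

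The main activation screens, 8 high and 8 low libraries from rounds 2 to 5 that share no library with the early screen, give a second view of the same guides. There, 69.5% of tested guides passed log2 FC > 3 with FDR < 0.05 and are called enriched (810 of 1166) and 3.34% were depleted, so a positive fold change there sets no guide apart. Of the 39 early enriched guides, 35 were read in at least 1 main high library (89.7%, against 90.5% of all guides tested early). The main fit tested 8 of them, of which 4 were enriched (BNA7, MAL11, CCT3 and snR63) and 2 depleted (EMW1 and PRY2). A sort replicate is here the high and the low library labelled with the same round and replicate number, a match of labels only. By share of reads in each sort replicate, 1 of the 39 was higher in at least 5 of the 8 high libraries than in the low library of the same round and replicate, and 24 were lower in at least 5 (61.5%). Over all 3215 guides tested early, 37 were higher (1.15%) and 2163 lower (67.3%) by the same count, so these numbers do not set the enriched guides apart.

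The BNA7 guide had a lowest, median and highest level of 44.3, 918 and 133852 CPM in the main high libraries, against 3582, 13633 and 193326 in the main low libraries. It was higher in 1 of 8 sort replicates and lower in 7, while its log2 FC with RLE factors was 3.88 (adjusted p = 0.0324). The share and the normalised fold change therefore point opposite ways for this guide, and its call was lost under each alternative run for these screens, as were those of MAL11 and snR63. The CCT3 guide kept its call with glmQLFTest and TMM and lost it with the block (log2 FC 1.26) and without a filter (6.44). It had a median of 1.78 CPM in the main high libraries, against 31.0 in the main low libraries. It was lower by share in 5 of 8 sort replicates, and 1 library held 98.0% of its main high reads. The PDI1 guide had 0, 6.28 and 1534 CPM in the main high libraries, against 1.22, 667 and 43738 in the main low libraries (log2 FC −2.65, adjusted p = 0.0941). The NMA2 guide had 34.4, 337 and 3481 CPM in the main high libraries, against 318, 3624 and 45492 in the main low libraries (log2 FC 1.51, adjusted p = 0.322). Both were lower by share in 6 of 8 sort replicates.

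The guides of EMW1 and PRY2, enriched early, were depleted in the main screens, with nearly all their main low reads in 1 library. Low round 3 replicate 1 held 97.2% of these reads for the EMW1 guide and 99.0% for the PRY2 guide. Both were lower by share in 6 of 8 sort replicates, and 67.3% of all guides tested early were lower in at least 5. The EMW1 guide had a median of 5.09 CPM in the main high libraries, against 68.7 in the main low libraries (log2 FC −4.49, adjusted p = 0.0109), and the PRY2 guide 2.56, against 127 (log2 FC −5.91, adjusted p = 0.00269). Without a filter both calls were lost at like fold changes (−4.63 for EMW1 and −6.11 for PRY2), and with the sort replicate as a block they were lost at smaller ones (−0.81 and −3.07). The guides of KRS1 and NGK1 were lower by share in all 8 sort replicates, as were low-only guides such as those of SUT248 and CDC31. The YPR148C guide had no read in any main activation library. Among the low-only guides, 138 were tested in the main screens, and 101 of them were enriched and 8 depleted. Over all 1166 guides tested there, 810 were enriched (69.5%) and 39 depleted (3.34%), so the enriched count does not set the low-only guides apart. The MRPL44 guide, with no early high read, had a median of 91.6 CPM in the main high libraries, against 9.26 in the main low libraries (log2 FC 5.33, adjusted p = 0.00466). The RPS7B guide had a median of 6.51, against 154, and a log2 FC of 5.72 (adjusted p = 0.00297). It was lower by share in 7 of 8 sort replicates, and its call was lost with the sort replicate as a block (log2 FC 0.51), with TMM (1.87) and without a filter (5.77). Of the high-only guides, 74.6% were read in the main high libraries and 91.0% in the main low libraries, against 81.2% and 94.0% of the low-only guides and 72.0% and 88.0% of all guides detected in the early screen, so the high-only shares lay near those of all detected guides.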

How the data were processed

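Guide amplicons of the early activation screen and of the main activation screens were analysed, and the repression libraries were not used here. The authors sorted reads by barcode, mapped them to the guide sequences using BWA, and deposited raw read counts per guide, with no normalization and no pooling of replicates. Tool versions are not given in the sources used here.

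From the deposited counts, the 2 fractions were tested against each other in edgeR 4.0.16, under R 4.3.3 (filterByExpr, since no filter is named, RLE factors, glmFit and glmLRT, prior count 0.125, Benjamini-Hochberg adjustment over all tested guides). The test follows the study's methods. The cut at log2 FC > 8 and FDR < 0.1 is the one the study used to choose early screen genes for a gene network, and its mirror for depleted guides was set here. The study's general cut, log2 FC > 3 and FDR < 0.05, was used for the main screens and, chosen after seeing the data, also tried on the early screen. The common dispersion of the early fit was 3.85. The standard error was taken as the log2 fold change over the root of its likelihood ratio statistic. CPM use library totals. A guide was present with 1 read or more.

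Genes come from the study's guide lists (2278 guides, 1987 features), of which 1462 matched RefSeq R64. Coordinates are those of the gene, not of the guide site. Named guides were the 10 high-only and 10 low-only guides with the largest lower CPM, the 5 most read guides of each library, the 5 enriched and 5 depleted guides with the most extreme log2 fold change, the guides of PDI1 and NMA2, and up to 4 guides of each set per gene list. Members, lists and other enriched guides were chosen with earlier results of these data known.

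Libraries were not paired. Alternatives were no filter, CPM above 1 in at least 2 libraries, glmQLFTest, DESeq2 1.42.0, TMM, library size alone, a prior count of 2, the replicate block, other presence rules, thinning and leaving out a replicate.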

Additional observations from a re-analysis of the deposited data

Results flagged for a closer look

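Over the 8 libraries of a fraction in the main activation screens, 1 library stood far from the others for 9 of the 10 early guides whose fits in these screens are given above. The gap between the outermost library and its neighbour, as a share of the whole range of CPM, was 0.903 in the high and 0.862 in the low libraries for the MAL11 guide, 0.678 and 0.988 for EMW1, 0.860 and 0.983 for MRPL44, 0.987 and 0.976 for PDI1, and 0.888 and 0.843 for snR63. It was 0.890 for RPS7B and 0.965 for CCT3 in the high libraries, and 0.818 for NMA2 and 0.992 for PRY2 in the low libraries. The limit for 8 libraries is passed by chance in about 1 of 20 groups of normally distributed values. That rate does not hold for unlogged CPM as skewed as these, and how often all guides pass the limit was not counted. The PRY2 guide, for example, reached 183536 CPM in 1 low library and 1507 in the next.

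The guides of KRS1 and NGK1 had a larger share of reads in the high than in the low library of both early replicates, and a smaller share in 8 of 8 sort replicates of the main activation screens. They had 9 and 11 reads over all main high libraries. A smaller share was common there, in at least 5 of 8 sort replicates for 67.3% of all guides tested early. Low-only guides such as those of SUT248 and CDC31 were also lower in 8 of 8, and how many of all guides were so was not counted. The difference between the screens was not tested.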

How the results depend on the processing

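The calls depended on the test and the filter. Against 39 enriched and 681 depleted guides of 3215 tested, no filter gave 0 and 0 of 11917 (728 and 332 at an unadjusted p under 0.05), CPM above 1 in at least 2 libraries gave 0 and 0 of 4206 (272 and 903), and the replicate block gave 0 and 0 (59 and 519). For comparison, 112 and 704 guides passed unadjusted in the reported fit. The glmQLFTest gave 0 and 41 (8 and 485 unadjusted), DESeq2 212 and 161, sharing 39 and 150 with the reported calls, library size alone 25 and 1096, sharing 25 and 681, TMM 34 and 969, and a prior count of 2 gave 36 and 20. The labels do not say whether equal replicate numbers share a culture or sort, and the deviations of high and low replicate 1 from their fraction means correlated at −0.01 over 3215 guides, and the reported fit had no pairing. The median log2 fold change was 0.11 with RLE, −1.94 with TMM and −2.50 with library size alone. A minimum of 10 reads left 12 high-only and 748 low-only guides, counting 1 read as absent gave 28 high-only guides, and a single replicate gave 805 to 1666 high-only and 3455 to 6535 low-only guides. Thinning gave 55 high-only and 1468 low-only guides. Of 53 enriched or leading depleted early guides, 16 enriched ones fell by more than 1 standard error without replicate 1. The log2 fold change of these 16 was then 0.0 to 8.75 (GPM3 at 1.40). Smaller falls were not counted, such as that of the PDI1 guide from 12.34 to 8.06. A further guide changed sign: gtctggcctgCTGTACGCTG had a log2 fold change of −2.81 without replicate 1 and 14.96 without replicate 2. In the main screens, TMM turned the MAL11 guide to −0.10 and the NMA2 guide to −0.089, 7 of 8 called guides lost their call with the replicate block, and all 8 lost it without a filter. In the high-only set, 14 guides had 1 read in each high library, the lowest depth at which a guide can enter it.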
